A study of Homo sapiens with 4 samples.

Results

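The genes described here are the protein-coding genes of human chromosome 18 that were expressed in a lung squamous carcinoma cell line measured at radiation doses of 0 and 30 Gy (gray). A member had to lie on chromosome 18, be annotated as protein-coding and have a mean of at least 3 FPKM (fragment counts scaled to gene length and library size) over the 4 libraries. Of 269 protein-coding genes listed on the chromosome, 122 reached this level. The rule leaves out 14 genes by name, among them SMAD2, SMAD4, TYMS, CDH2 and BCL2. Of these, 12 reached the level, so 110 members remained, out of 58735 genes listed in all. Within the chromosome, the members were thus set by their mean FPKM and by the names left out. The rule was chosen with earlier results of these data known. The mean FPKM ran from 3.01 to 70.4 among the members, with a median of 9.17. Because this mean is over both doses, a gene could reach the limit through its level at 1 dose. CABLES1, ZCCHC2 and ZNF397 averaged 4.57, 3.83 and 3.64 FPKM at 0 Gy but 1.93, 2.54 and 2.61 at 30 Gy. METTL4 went the other way, from 2.92 to 3.61. Just inside the limit stood ZSCAN30 (3.01), KCTD1 (3.05) and ZNF397 (3.13), and just outside it EMILIN2 (2.95), MYO5B (2.79) and ATP8B1 (2.73).

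RNA was sequenced from 2 libraries at each dose, numbered 1 and 2, and the library names give the dose. Every library is labelled as the same human lung squamous cell carcinoma line, with no transgene or other agent named. The design text speaks of the SK-MES-1 line and of SK-MES-1-RR, made resistant to radiotherapy, but the labels do not assign libraries to either, nor give the schedule of irradiation or the time of harvest. The groups are named here by dose alone. Nothing states that replicates were separate cultures, so a p-value here reflects the spread among these libraries alone, which may be technical. Depth was 15920861 to 17261121 reads per library. Of 11 lineage markers, KRT5 and KRT6A, keratins of stratified epithelium, had 0 reads in all 4 libraries and KRT14 had 0 to 4. TP63, the squamous lineage factor, averaged 4.04 and 3.26 FPKM at 0 and 30 Gy, while KRT7, KRT8, KRT18 and KRT19 of simple epithelium were abundant. Not all epithelial markers were: CDH1 had 2 and 7 reads at 0 Gy and 0 in both 30 Gy libraries. EPCAM averaged 4.87 and 3.45 FPKM at 0 and 30 Gy, and SOX2 0.173 and 0.512. The mean of KRT7 rose from 95.8 to 211 FPKM and that of KRT19 fell from 162 to 88.4, and the summed level of the 11 was 349 and 337 FPKM at 0 Gy and 406 and 372 at 30 Gy. Of 11 markers of immune, endothelial and mesenchymal cells, 9 averaged under 1 FPKM, CD3E, DCN and LYZ had 0 reads, and COL1A1 made up nearly all of their summed level of 63.3 and 63.7 FPKM at 0 Gy and 79.4 and 71.9 at 30 Gy. The part of these markers in the results below was not tested. In bulk RNA, fewer cells expressing a gene and less of its RNA per cell cannot be told apart.

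Chromosome 18 is among the most gene-poor of the human autosomes. Its short arm, 18p, and long arm, 18q, carry unrelated housekeeping, signalling and tissue-specific genes, and loss of 18q is frequent in carcinomas, where SMAD4 and other growth-restraining genes lie. The number of copies of the chromosome was not measured in the files used here, and RNA levels alone do not give it. In this cell line 31 members lay on 18p, from USP14 at chr18:158383-214629 to RNMT at chr18:13726660-13764558 (hg38), and 79 on 18q, from ESCO1 at chr18:21529281-21600884 to ADNP2 at chr18:80109031-80147523.

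Most members were lower at 30 Gy, along both arms. The ratio of mean FPKM at 30 Gy to that at 0 Gy had a median of 0.842 over the 110 members, with quartiles of 0.741 and 0.966. It was under 1 for 86 of the 110 members (78.2%), against 49.7% of the 8707 protein-coding genes of all chromosomes at the same minimum, whose median ratio was 1.002, and 50.2% of all genes tested. limma's test on log2(FPKM + 1), fitted over all 13379 genes with Benjamini-Hochberg adjustment at 0.05, called 38 members lower and 4 higher, 38.2% in all, against 19.8% of all genes tested and 24.1% of the protein-coding genes at the same minimum. By direction, the background rates were 9.06% lower and 10.8% higher over all genes tested, and 10.7% and 13.4% over the protein-coding genes at the same minimum, against 34.5% and 3.64% of the members. At an unadjusted p under 0.05, 58 members were lower (52.7%), against 18.3% of all genes tested and 20.3% of the protein-coding genes at the same minimum. With the replicate number as a block in the fit, the count called lower was 23 (20.9%), against 6.32% of all genes tested. Both 30 Gy libraries lay below both 0 Gy libraries for 75 members (68.2%) and above them for 14 (12.7%). The shares were 33.9% and 35.8% of the protein-coding genes at the same minimum, and 32.3% and 32.9% of all genes tested. These are descriptions, because the chromosome was picked for study with earlier results of these data known. With either 0 Gy library left out, limma called 0 members and 0 genes of the whole table, the lone library being assumed to vary like the 30 Gy pair. At an unadjusted p under 0.05, these fits had 3422 and 3460 genes, with 42 members lower in each (38.2%, against 11.4% and 11.9% of all genes). Leaving out the first or the second 30 Gy library left 3 members called lower (2.73%) and 2 higher (1.82%). In those fits 3.09% and 2.84% of all genes were called lower, so the share of members called lower was no higher than the background. At an unadjusted p under 0.05 the same fits had 40.0% and 48.2% of the members lower, against 15.2% and 15.4% of all genes.

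**Figure D1:**
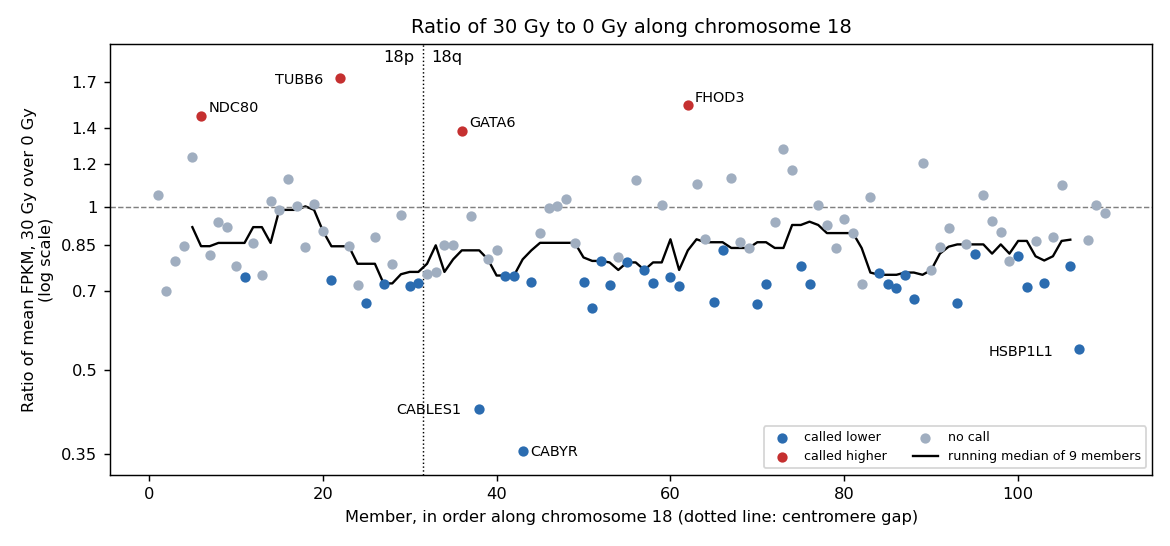
Each point is a member, in order along chromosome 18 (x axis), with its ratio of mean FPKM at 30 Gy (2 libraries) to 0 Gy (2 libraries) on a log scale (y axis), coloured by the limma call. The running median of 9 members (black line) stayed between 0.722 and 1.002, and the 4 members called higher lie above it, between 1.38 and 1.73.

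The libraries of a dose behaved alike. On the log2(FPKM + 1) scale, the median deviation of the members from their mean over the 4 libraries was 0.09 and 0.13 at 0 Gy, against -0.13 and -0.09 at 30 Gy. The protein-coding genes at the same minimum had medians within 0.01 of 0 in every library, from -0.0033 to 0.0062. Any single 30 Gy library set against any single 0 Gy library gave a median ratio of 0.814 to 0.879 over the members. Within a dose the ratio of replicate 2 to replicate 1 had a median of 1.03 at 0 Gy and 1.02 at 30 Gy. For the protein-coding genes at the same minimum, these medians were 1.005 and 1.003. The SD over members of the log2 ratio was 0.14 between the 0 Gy replicates and 0.14 between the 30 Gy replicates, and 0.32 between the doses. Over the protein-coding genes at the same minimum the SDs were larger, at 0.175, 0.174 and 0.42.

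**Figure D2:**
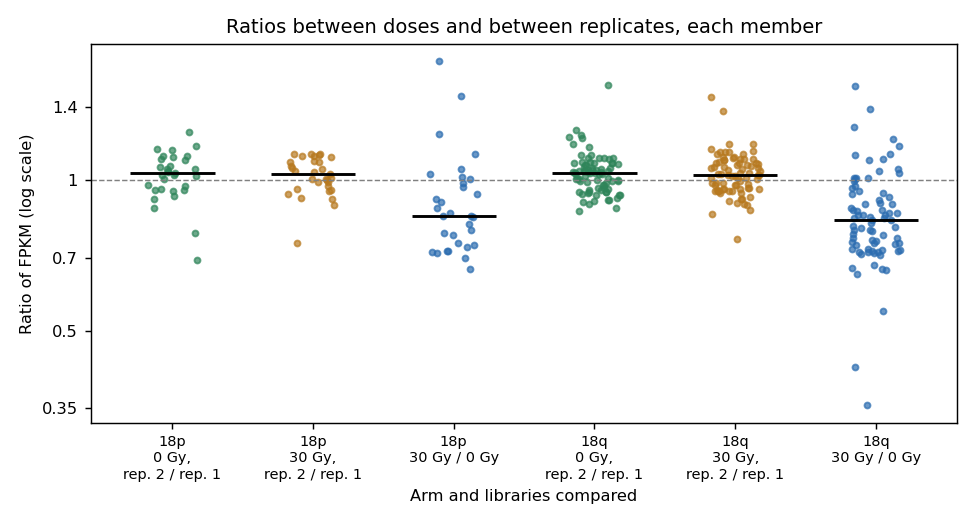
FPKM ratios on a log scale (y axis) for each member (points) on 18p and 18q, between the 2 replicates of each dose and between the dose means, with the median as a bar. The replicate ratios centre at 1.02 to 1.03 on each arm, and the dose ratios at 0.846 on 18p and 0.831 on 18q.

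The 2 arms had nearly the same median ratio. On 18p it was 0.846, with quartiles of 0.745 and 0.995 and a range from 0.665 (SPIRE1) to 1.73 (TUBB6). On 18q it was 0.831, with quartiles of 0.734 and 0.945 and a range from 0.355 (CABYR) to 1.54 (FHOD3). The ratio was under 1 for 23 of 31 members on 18p and 63 of 79 on 18q. limma called 6 lower (19.4%) and 2 higher (6.45%) on 18p, and 32 lower (40.5%) and 2 higher (2.53%) on 18q. The shares of the protein-coding genes at the same minimum were 10.7% and 13.4%. This difference between the arms in the share called was not tested. The 18p median depended on the members taken, as it was 0.911 for the 16 members with a mean of at least 10 FPKM.

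Along the chromosome no stretch of 10 Mb had a median ratio above 1. In the first 10 Mb of 18p the median of 18 members was 0.888, with 12 under 1. Of these 18, 1 fell (RAB12, 5.56%) and 1 rose (NDC80, 5.56%). The shares were 10.7% and 13.4% of the protein-coding genes at the same minimum, so this stretch had no more falls than that background. In the rest of 18p the median was 0.785 over 13 members, of which 5 fell (38.5%) and 1 rose (TUBB6, 7.69%). On 18q the medians were 0.816 (16 members) from 20 to 30 Mb, 0.792 (16) from 30 to 40 Mb, 0.861 (11) from 40 to 50 Mb, 0.777 (17) from 50 to 60 Mb, 0.883 (6) from 60 to 70 Mb and 0.811 (11) from 70 to 80 Mb. The last 2 members, RBFA and ADNP2, lay past 80 Mb with ratios of 1.01 and 0.973. From 30 to 40 Mb, 9 of 16 members fell (56.25%), the highest share of these stretches. The running median of 9 members was under 1 in 101 of 102 windows. It was lowest around PTPN2 near 12.8 Mb (0.722) and highest around VAPA near 9.91 Mb (1.002), both on 18p. Spearman's rho between position and ratio was -0.05 over the 110 members, -0.30 over the 31 on 18p and 0.08 over the 79 on 18q; members share libraries, so no p is given.

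These 3 promoters are shown because they belong to the member that fell most (CABYR), the one that rose most (TUBB6) and NDC80, which rose and whose window also covers the start of METTL4. They are RefSeq sequences of GRCh38.p14, plus strand, 300 bases each, from 250 bases before the start site to 50 after it. They lie at chr18:24138812-24139111 (CABYR), chr18:12307419-12307718 (TUBB6, the listed start nearest to the deposited gene start) and chr18:2571307-2571606 (NDC80). Capitals mark TTTGAA (the core of the cell cycle genes homology region), CCAAT (the box bound by NF-Y) and TGACNNNGC (the core of the antioxidant response element), searched on both strands.
CABYR: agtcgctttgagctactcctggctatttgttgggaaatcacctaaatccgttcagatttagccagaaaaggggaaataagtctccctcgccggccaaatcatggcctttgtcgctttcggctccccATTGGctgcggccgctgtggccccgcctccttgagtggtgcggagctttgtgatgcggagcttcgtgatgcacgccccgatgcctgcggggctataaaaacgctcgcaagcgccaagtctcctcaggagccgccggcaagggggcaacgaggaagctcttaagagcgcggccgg
TUBB6: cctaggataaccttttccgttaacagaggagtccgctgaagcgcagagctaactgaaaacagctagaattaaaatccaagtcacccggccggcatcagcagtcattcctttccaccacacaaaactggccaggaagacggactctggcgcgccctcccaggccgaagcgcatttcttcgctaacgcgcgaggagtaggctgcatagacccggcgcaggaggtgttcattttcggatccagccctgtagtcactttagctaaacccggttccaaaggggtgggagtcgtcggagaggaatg
NDC80: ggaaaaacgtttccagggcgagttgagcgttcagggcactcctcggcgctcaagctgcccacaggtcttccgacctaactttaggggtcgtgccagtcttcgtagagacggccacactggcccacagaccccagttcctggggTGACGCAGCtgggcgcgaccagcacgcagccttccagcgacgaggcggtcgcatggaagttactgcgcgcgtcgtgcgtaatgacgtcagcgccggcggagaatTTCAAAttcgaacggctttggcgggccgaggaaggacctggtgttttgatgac
The CABYR window holds 1 CCAAT box, read on the minus strand as ATTGG. The NDC80 window holds 1 TGACNNNGC and 1 TTTGAA, the latter read as TTCAAA, and the TUBB6 window holds none of these letters. Of 92 members with a listed promoter, 13 (14.1%) hold TTTGAA, against 15.2% of all 35116 promoters, 31 (33.7%) hold CCAAT, against 34.6%, and 14 (15.2%) hold TGACNNNGC, against 13.3%. The members thus held these motifs about as often as all listed promoters. Their median GC content was 66.8%, against 58.7% over all promoters. The 35116 were not limited to expressed genes or to 1 promoter per gene, so these differences cannot be ascribed to the chromosome. Spearman's rho between promoter GC and ratio was 0.01 over the 92 members.

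The 3 members that fell most lay on 18q. CABYR, a calcium-binding protein of the sperm tail that is also made in some tumours, stood at 11.8 and 12.5 FPKM at 0 Gy and 4.13 and 4.47 at 30 Gy. It fell 2.82-fold, with a log2 change of -1.31 ± 0.08 (SE, adjusted p = 0.00204). CABLES1, which links cyclin-dependent kinases to the ABL1 kinase, stood at 4.70 and 4.44 at 0 Gy and 1.91 and 1.96 at 30 Gy. It fell 2.36-fold (log2 change -0.92 ± 0.09, adjusted p = 0.00600). CABLES1 reached the limit of 3 FPKM through its 0 Gy libraries, so the rule itself favours a fall for such a gene. In fits that left out 1 library at a time, the log2 change ran from -1.35 to -1.26 for CABYR and from -0.96 to -0.89 for CABLES1. These fits reuse libraries in which both genes were picked, so they are no further evidence. HSBP1L1, a relative of the heat shock factor binding protein HSBP1, stood at 7.63 and 6.61 at 0 Gy and 3.99 and 3.79 at 30 Gy, a 1.83-fold fall (adjusted p = 0.0112). For all 3 the doses were separated by more than the replicates differed, which picking the largest falls past the threshold makes likely. Ranked by log2 change of FPKM + 1, the other 7 of the 10 largest falls were close in size, between 1.39-fold (CXXC1) and 1.54-fold (DTNA) in FPKM, and are described with their groups. By the FPKM ratio itself, some members outside these 10 fell more than CXXC1, among them ZCCHC2 (1.51-fold), ZADH2 (1.41-fold) and MOCOS (1.399-fold).

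The 4 members that rose are a tubulin, a kinetochore protein, an actin regulator and a transcription factor. TUBB6, a beta-tubulin of microtubules, stood at 23.9 and 22.9 FPKM at 0 Gy and 41.3 and 39.5 at 30 Gy (ratio 1.73, log2 change 0.76 ± 0.06 SE, adjusted p = 0.00423). FHOD3, a formin that builds actin filaments, stood at 5.77 and 6.03 at 0 Gy and 9.73 and 8.47 at 30 Gy (ratio 1.54, adjusted p = 0.0189). NDC80, the outer kinetochore protein that holds spindle microtubules, stood at 15.3 and 16.0 at 0 Gy and 22.1 and 23.99 at 30 Gy (ratio 1.47, adjusted p = 0.0121). GATA6, a zinc finger transcription factor of endoderm, stood at 9.32 and 9.83 at 0 Gy and 12.9 and 13.6 at 30 Gy (ratio 1.38, adjusted p = 0.0188). In each case both 30 Gy libraries lay above both 0 Gy libraries, which the choice of members past the threshold makes likely. TUBB6 overlaps AFG3L2 by 15377 bases and FHOD3 overlaps TPGS2 by 2409 bases, each on the opposite strand. Whether reads were counted by strand is not given in the sources used here, so reads of such pairs may not be fully separated. CABLES1 and TMEM241 overlap by 63324 bases in the same way, and GATA6 and CABYR overlap the non-coding AC091588.3 and AC090772.3 by 1910 and 2095 bases. The 77 members whose span meets no other gene of at least 1 FPKM had a median ratio of 0.846, with 61 under 1.

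**Figure D3:**
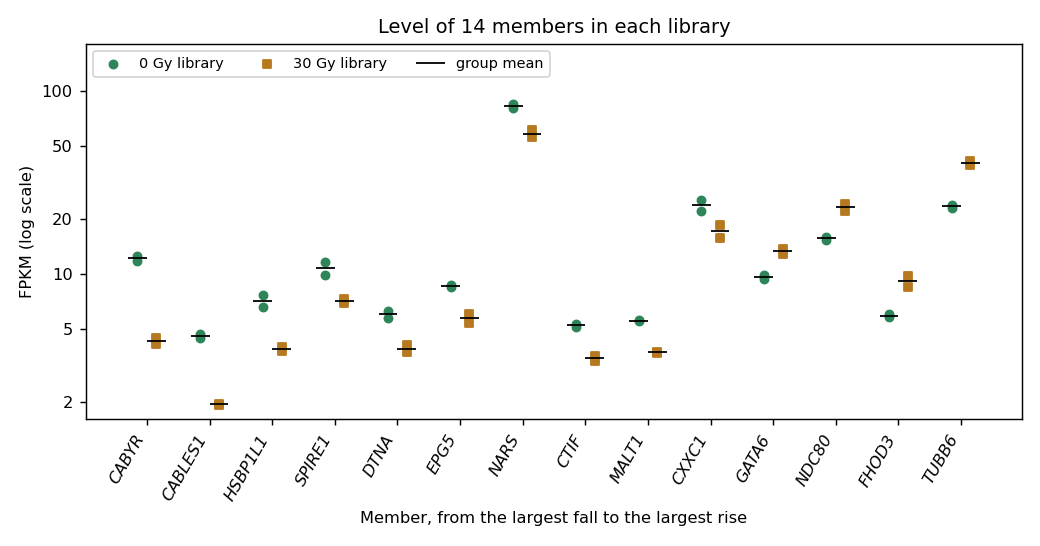
FPKM on a log scale (y axis) in each of the 4 libraries for the 10 largest falls by log2 change of FPKM + 1 and the 4 rises among members past the threshold (x axis), with circles for 0 Gy, squares for 30 Gy and bars for the group means. The 14 were picked by their calls in these same libraries, so that their groups do not overlap is no further evidence. CABYR and CABLES1 show the widest gaps.

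Cell division members went both ways. Of 7, TUBB6 and NDC80 rose (28.6%) and MAPRE2 fell (14.3%), with a median ratio of 1.01. Over all 110 members, 34.5% fell, 3.64% rose and 78.2% had a ratio under 1. Of the protein-coding genes at the same minimum, 10.7% fell and 13.4% rose. The groups here and below are to be read beside these shares. Whether any group differed from the members as a whole was not tested. MAPRE2, which binds the growing ends of microtubules, went from 13.9 ± 0.394 FPKM at 0 Gy to 11.1 ± 0.164 at 30 Gy (SD, n = 2 libraries per dose, as for all such values). SKA1, of the kinetochore, HAUS1, of the augmin complex that branches spindle microtubules, and CEP192, which recruits centrosome proteins, had ratios of 1.01, 1.13 and 0.967 and did not pass. ESCO1, which acetylates cohesin, had a ratio of 0.751 and an adjusted p of 0.0758.

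Chromatin and DNA repair members all had ratios under 1, but SS18 (0.995), RBBP8 (0.963) and MBD2 (0.949) had overlapping groups and did not pass. Of 7, CXXC1 and MBD1 fell (28.6%) and 0 rose. CXXC1, a CpG-binding subunit of a histone H3 lysine methyltransferase, stood at 25.2 and 22.2 FPKM at 0 Gy and 18.4 and 15.7 at 30 Gy (adjusted p = 0.0445). MBD1, a methyl-CpG binding protein encoded beside it, went from 19.4 ± 0.371 to 15.04 ± 0.912. SMCHD1, which keeps the inactive X chromosome silent, and POLI, a translesion DNA polymerase, had ratios of 0.816 and 0.895 and did not pass.

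Among 12 transcription factors and zinc finger proteins, GATA6 rose, while ZNF516, ZNF397 and ZNF24 fell. ZNF516 went from 7.34 ± 0.358 to 5.32 ± 0.154 FPKM, ZNF397 from 3.64 ± 0.0951 to 2.61 ± 0.0700, and ZNF24 from 13.7 ± 0.337 to 10.8 ± 0.134. ZBTB14, a zinc finger repressor, missed the threshold at an adjusted p of 0.0501, with a ratio of 0.778. TGIF1, a repressor that acts with SMAD proteins, had a ratio of 0.918 and did not pass.

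RNA processing and translation members were mostly lower, as were the members as a whole. Of 12, 5 fell (41.7%, against 34.5% of all members) and 0 rose. The ratio was under 1 for 11 (91.7%, against 78.2%). NARS, the asparaginyl-tRNA synthetase and the most abundant member, stood at 80.6 and 84.1 FPKM at 0 Gy and 55.7 and 61.0 at 30 Gy (ratio 0.709, adjusted p = 0.0143). CTIF, which supports translation through the nuclear cap-binding complex, stood at 5.33 and 5.13 at 0 Gy and 3.35 and 3.56 at 30 Gy. RNMT, the mRNA cap methyltransferase, went from 14.8 ± 0.525 to 10.7 ± 0.476, and RPRD1A, which binds the tail of RNA polymerase II, from 13.5 ± 0.449 to 9.79 ± 0.545. ELP2, a scaffold of the Elongator complex, completed the 5. CTDP1, a phosphatase of RNA polymerase II, had a ratio of 1.10 and did not pass. RPL17, a ribosomal protein gene with processed copies elsewhere in the genome, varied from 4.80 to 7.44 FPKM within the 0 Gy group, and its level is uncertain.

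Mitochondrial members included 3 that fell (33.3%, against 34.5% of all members) and 0 that rose, of 9. FECH, which inserts iron into haem, went from 20.3 ± 0.577 to 14.7 ± 0.0957 FPKM. FAM210A, a mitochondrial membrane protein, went from 9.77 ± 0.119 to 6.99 ± 0.539, and ATP5F1A, the alpha subunit of ATP synthase, from 53.6 ± 2.15 to 44.5 ± 0.110. PRELID3A and TIMM21 had ratios of 0.718 and 0.796 and did not pass, and ACAA2, a thiolase of fatty acid oxidation, had a ratio of 1.17 and did not pass.

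Membrane traffic and lysosome members formed the largest group. Of 19, 6 fell (31.6%, against 34.5% of all members), 0 rose and 17 had a ratio under 1 (89.5%, against 78.2%). EPG5, which helps autophagosomes fuse with lysosomes, stood at 8.47 and 8.73 FPKM at 0 Gy and 6.05 and 5.41 at 30 Gy (adjusted p = 0.0177). DYM, a Golgi protein, went from 11.7 ± 0.0264 to 8.40 ± 0.254, OSBPL1A, an oxysterol-binding protein of late endosomes, from 11.03 ± 0.547 to 8.02 ± 0.0640, and RAB12, a GTPase of endosomes, from 25.6 ± 1.704 to 19.0 ± 0.119. RMC1, a subunit of the MON1-CCZ1 complex, and VPS4B, the ATPase that recycles ESCRT-III (adjusted p = 0.04997, just under the threshold), completed the 6. RAB27B, a GTPase of secretion, had a ratio of 0.719 and did not pass. RMC1 overlaps NPC1, one of the genes left out by name, by 25624 bases on the opposite strand.

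Of 8 signalling members, 4 fell and 0 rose. Besides CABLES1, MALT1, a protease of NF-kB signalling, stood at 5.51 and 5.57 FPKM at 0 Gy and 3.76 and 3.71 at 30 Gy (adjusted p = 0.0182). PTPN2, a tyrosine phosphatase that restrains JAK and STAT signalling, went from 5.58 ± 0.289 to 4.02 ± 0.128, and IMPA2, an inositol monophosphatase, from 17.1 ± 0.317 to 12.5 ± 0.0850. YES1, a SRC-family kinase of 18p, had a ratio of 0.846 and did not pass, and PPP4R1, a regulatory subunit of protein phosphatase 4, had a ratio of 1.13 and did not pass.

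Of 6 ubiquitin and proteasome members, RNF138 and NEDD4L fell (33.3%, against 34.5% of all members) and 0 rose. RNF138, a ubiquitin ligase of DNA end processing, went from 13.4 ± 1.54 to 9.73 ± 0.457 FPKM, and NEDD4L, a ligase that removes ion channels from the membrane, from 7.30 ± 0.246 to 5.47 ± 0.180. MIB1, which activates Notch ligands, and PSMG2, a proteasome assembly chaperone, had ratios of 0.849 and 0.881 and did not pass. Of 11 metabolism and transport members, 3 fell (27.3%) and 0 rose. MOCOS, which sulfurates the molybdenum cofactor, went from 11.7 ± 0.460 to 8.34 ± 0.573, ZADH2, a prostaglandin reductase, from 6.40 ± 0.201 to 4.55 ± 0.147, and CNDP2, a dipeptidase, from 12.7 ± 0.0104 to 10.3 ± 0.117. LIPG, endothelial lipase, had a ratio of 1.28 with separated groups and did not pass (adjusted p = 0.0911). Of 4 cell shape and matrix members, FHOD3 rose, and SPIRE1 and DTNA fell. SPIRE1, which nucleates actin, stood at 9.86 and 11.6 FPKM at 0 Gy and 6.93 and 7.31 at 30 Gy, and DTNA, dystrobrevin alpha, at 5.74 and 6.25, and then at 4.07 and 3.72. SERPINB5, maspin, had a ratio of 1.05 with overlapping groups. Of 15 members on no list, 7 fell (46.7%) and 0 rose. These were CABYR, HSBP1L1, ZCCHC2, TTC39C, TXNL1, C18orf21 and PQLC1, and SNRPD1, a core protein of spliceosomal snRNPs, had a ratio of 0.758 and missed the threshold (adjusted p = 0.0541).

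Neighbouring members with adjacent start sites had like ratios in some pairs and unlike ones in others. Start sites on opposite strands lay within 1000 bases of each other in 7 pairs. METTL4, a methyltransferase, and NDC80 start 2 bases apart and had ratios of 1.24 (no call) and 1.47. RNMT and FAM210A start 3 bases apart and both fell, with ratios of 0.722 and 0.716. ABHD3 and MIB1, 152 bases apart, had ratios of 0.852 and 0.849. HAUS1 and ATP5F1A start 2 bases apart and had ratios of 1.13 (no call) and 0.831 (fell). SLC39A6, a zinc transporter, and ELP2, 59 bases apart, had ratios of 1.01 (no call) and 0.741 (fell), and PSMG2 and SPIRE1, 91 bases apart, 0.881 (no call) and 0.665 (fell). The difference within a pair was not tested.

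Subunits of complexes that chromosome 18 encodes were set beside their partners encoded elsewhere. In 10 complexes, 31 of 36 tested partners (86.1%) had a higher ratio than the chromosome 18 member. Of the 8707 protein-coding genes, 66.1% lay above the same members, averaged with each member weighted by its number of partners, so a low member ratio by itself places most genes above it. The share was 94.5% for THOC1, 91.4% for ELP2 and 87.5% for SEH1L. THOC1, of the THO complex of mRNA export, had a ratio of 0.699 (no call, adjusted p = 0.0716), and its 5 partners 0.803 to 1.72, among which THOC6 rose. ELP2 fell at a ratio of 0.741, while ELP3, ELP5 and ELP6 had ratios of 0.896, 0.979 and 1.19 and did not pass. SEH1L, of the nuclear pore, had a ratio of 0.785 (no call), and its 7 partners 0.942 to 1.15, none of which passed. NDC80 rose with its complex, in which NUF2, SPC25 and SPC24 also rose, with ratios of 1.45, 1.63 and 1.97. SKA1 had a ratio of 1.01, against 1.58 for SKA2, which rose, and 1.26 for SKA3, which did not pass. For PIK3C3, the lipid kinase of autophagy with a ratio of 0.871 (no call), 2 of 4 partners were higher and 2 lower, down to 0.771 for ATG14. Of all 43 tested genes on the partner list, 7 rose (16.3%) and 0 fell, and the median ratio was 1.10. The shares were 10.8% and 9.06% of all genes tested, and 13.4% and 10.7% of the protein-coding genes at the same minimum. The 7 were NUF2, SPC24, SPC25, SKA2, HAUS2, PPP4C and THOC6, most of them of the kinetochore or spindle. The 43 include VPS4A and CHMP1A, relatives of the members VPS4B and CHMP1B, and NDUFV1 and NDUFS1, which were set beside no member. At these numbers the partners are given as a description.

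**Figure D4:**
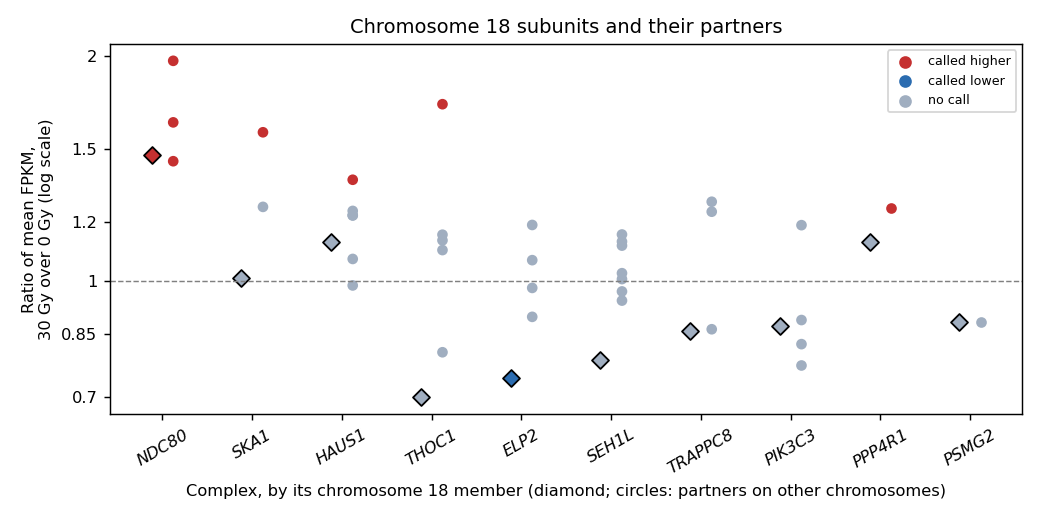
Ratio of mean FPKM at 30 Gy to 0 Gy on a log scale (y axis) for 10 chromosome 18 subunits (diamonds) and their 36 tested partners on other chromosomes (circles), coloured by the limma call. Of the partners, 31 stand above their diamond, as for ELP2 (0.741) and SEH1L (0.785), while PIK3C3 (0.871) has partners on both sides. PSMG2 (0.881) and its partner nearly coincide.

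Other genes of the chromosome gave mixed values. The 12 expressed genes that the rule leaves out by name had a median ratio of 1.07, with 5 under 1. NPC1 (0.594) and LAMA3 (0.631) fell, and CDH2 (1.38) and SMAD7 (1.36) rose. With these 12 included, the median ratio was 0.846 over 122 genes, with 40 called lower and 6 higher. The 32 protein-coding genes of the chromosome with a mean of 1 to 3 FPKM, DSC2 among them, lay under the limit. They had a median ratio of 0.874, with 23 under 1, 5 called lower and 2 higher. MYO5B, a myosin motor of endosome recycling, fell to a ratio of 0.458, and the serpins SERPINB2 (2.87) and SERPINB8 (1.63) rose.

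Ratios were low across levels of expression and were little related to gene length. The median was 0.803 for the 30 members of 3 to 6 FPKM, 0.796 for the 41 of 6 to 12 and 0.852 for the 39 of 12 and over. Spearman's rho with the ratio was 0.23 for mean FPKM and -0.09 for gene length over the 110 members, and 0.01 and -0.07 over the 8707 protein-coding genes. For mean FPKM it was 0.41 over the 31 members on 18p and 0.15 over the 79 on 18q. On 18p, 10 of the 16 members with a mean of at least 10 FPKM had a ratio under 1. The members' median gene length was 6639 bases, against 4980. This is the listed length and not the genomic span, whose relation to the ratio was not examined. FHOD3, for example, lies at chr18:36297714-36780055 but has a listed length of 7965 bases. Members on the minus strand had a median of 0.831 (47 members) and those on the plus strand 0.858 (63), and all 4 rises were on the plus strand.

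Set beside the other chromosomes at the same minimum, with the 12 named genes included, chromosome 18 had the lowest median ratio of the 22 autosomes and X. Chromosome 14 followed at 0.859 and X at 0.885, and the highest median was 1.15, on chromosome 20. The share of genes called lower was 32.8% on chromosome 18, ahead of 24.9% on X and 23.8% on 14. The share with a ratio under 1 was 74.6% on chromosome 18, below the 76.9% on 14. Chromosome 18 thus stood at one end of a graded series, next to chromosome 14, and whether it differs from its neighbours in that order was not tested.

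**Figure D5:**
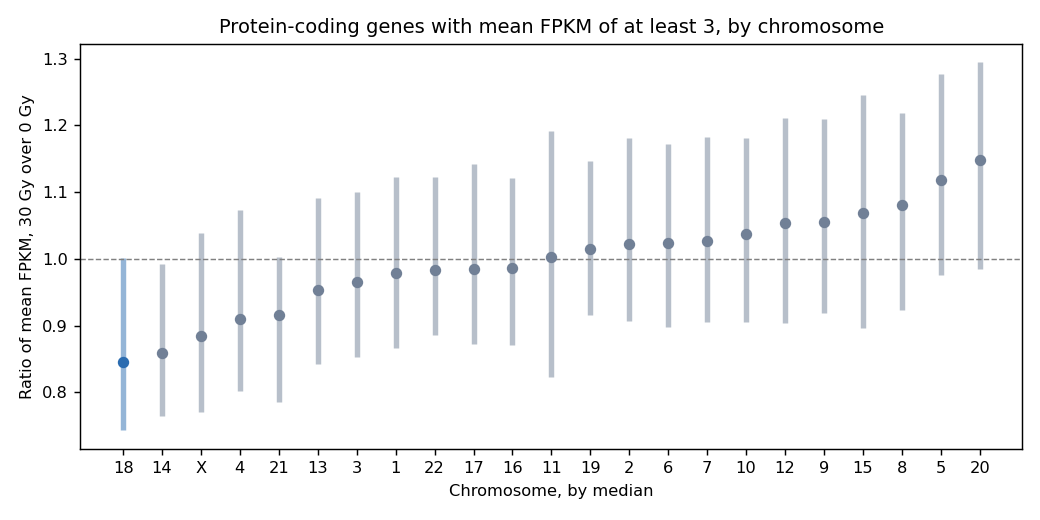
Median (point) and quartiles (bar) of the ratio of mean FPKM at 30 Gy to 0 Gy (y axis) over protein-coding genes with a mean of at least 3 FPKM, for each autosome and X in order of the median (x axis). Chromosome 18, in blue, lies lowest at 0.846, and chromosome 20 highest at 1.15.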

How the data were processed

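Gene-level FPKM values were deposited by the authors in 1 table of 58735 genes, with gene names, biotypes, positions and lengths. Per the submitters' processing notes, positions refer to hg38. Aligner, counter and annotation: not given in the sources used here. Multiplied by gene length, 100% of the FPKM values above 0 were whole multiples of 1 step per library (tolerance 0.001), which gave whole reads for depth and for an alternative test. Libraries were grouped by the dose in their names.

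Genes with at least 1 FPKM in at least 2 libraries (13379) were tested with limma 3.58.1 in R 4.3.3 (two-sided, lmFit and trended eBayes) on log2(FPKM + 1), without covariates and with Benjamini-Hochberg adjustment over all of them at 0.05. This scale understates changes of low genes. Residual degrees of freedom were 2 and prior ones 2.98, and the script was tested on simulated data. The smallest two-sided p of an exact permutation test is 0.333 in this design, so none was used. Ratios are of mean FPKM. The arms were split at 18 Mb, inside the stretch without members around the centromere. Summaries over members are descriptions with no test.

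Members, lists and rules were chosen with earlier results of these data known. Named members were the 10 largest falls and rises past the threshold by log2(FPKM + 1) change, up to 4 of each functional list, and members at the arm ends, the largest step and the FPKM limit; other names were added after values were seen. A few results the rule would name are not reported here. Promoters were matched to 92 members by symbol in RefSeq (GRCh38.p14). The alternatives tried are given in the closing section.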

Additional observations from a re-analysis of the deposited data

How the results depend on the processing

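The direction of the median ratio held for all members, 18p and 18q under the 10 alternatives run, with values under 1 throughout. The 18p median moved by more than 1 SD of the median ratios between single libraries for members of at least 10 FPKM (0.911) and for members overlapping no other expressed gene (0.881), the latter chosen after the data were seen. Leaving out 1 library at a time gave median ratios of 0.820 to 0.857 over all members, 0.834 to 0.869 on 18p and 0.814 to 0.840 on 18q.

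Counts of calls depended more on the setting. With every gene above 0 tested, 4 members were lower (3.64%, against 0.821% of all genes), 1 was higher and 604 genes were called in all, against 38, 4 and 2654. voom on the recovered reads called 58 lower (52.7%, against 16.3%) and 4227 genes in all. Leaving out 1 library at a time gave 0 to 3 members lower, 0 to 2 higher and 0 to 898 genes in all, with no larger share of members than of all genes called lower in any of these fits. A fit with the replicate number as a block called 23 members lower (20.9%, against 6.32%). The replicate numbers share no stated source, and same-numbered libraries did not deviate together (correlation -0.03), so the numbers were not taken as pairs. None of the 14 members with full values changed direction under any setting, but they were picked for large changes in these same libraries. CXXC1 lost its call without the variance trend, and CABYR, CABLES1 and TUBB6 kept theirs when every gene above 0 was tested. Median centring called 1340 genes lower and 1353 higher, against 1212 and 1442. With 2 libraries a dose, the spread of each gene is poorly known, and calls near the threshold are uncertain.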
